A study of Mus musculus with 6 samples.

Results

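Replication-dependent histone genes were taken as every probe, other than control probes, whose gene name on the array starts with Hist1h, Hist2h, Hist3h or Hist4h, which gave 68 probes for 56 genes out of 56605 probes for 37074 gene names. They fell into 8 probes for the linker histone H1, 21 for H2A, 18 for H2B, 10 for H3 and 11 for H4. LSK cells (Lineage-, Sca1+, cKit+), the bone marrow fraction that holds haematopoietic stem cells and early progenitors, came from C57BL/6 mice at postnatal days 6 to 8. The 3 control samples were Atg5w/w;VaviCre+ and the 3 samples labelled Atg5f/f;VaviCre+ (Atg5f/f;Vav below) carried both floxed alleles, so both groups held the Vav-iCre transgene, whose Cre acts in haematopoietic cells from fetal life on. Each sample was hybridised to 1 array. Neither the labels nor the methods say whether a sample was 1 mouse or several, so n, SD and p refer to the spread between arrays.

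Histones H2A, H2B, H3 and H4 form the nucleosome core and H1 binds the DNA between nucleosomes. The genes named here lie in clusters and are transcribed in S phase, when new DNA has to be wrapped. Their usual mRNAs have no introns and end in a short stem-loop that the protein Slbp binds, where other mRNAs have a poly(A) tail. The labelling kit named in the labels starts cDNA synthesis at poly(A) with an oligo-dT primer, so a histone transcript without a tail is not the template that the kit was made for. Several histone genes are also known to give longer, polyadenylated transcripts that run past the stem-loop, above all in cells that do not divide.

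The probes were therefore split by where they lie, a split made with the values of these probes already known. A probe was called a stem-loop probe when its 60 bases held an arm of the stem-loop, AAGGCNNTT or TTNAGNGCC. A probe was called downstream when it started further along the transcript than every stem-loop probe of its family, beyond base 663 for H1, 542 for H2A, 433 for H2B, 440 for H3 and 345 for H4. The other probes were called body probes. This gave 36 body, 13 stem-loop and 19 downstream probes. The arm was found in 410 of all 56605 probes (0.724%), searched in the orientation in which the probe is given.

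The bases around the stem-loop are shown for the histone genes on which the results turn, with the part that matched in capitals. The first 2 belong to the gene with the largest fall and the only gene that was higher, and the next 2 to genes that also had a downstream probe. Hist1h4m shows a complete stem-loop with both arms and the loop in capitals, as in Hist2h2bb. Each is a window of a 60-base probe.
Hist3h2ba: agcgcccccaacccaAAGGCTCTTttcaga
Hist1h3g: aaccactttaAAGGCTCTTcttagagccac
Hist2h2bb: cccaaaaGGCTCTTTTCAGAGCCacttta
Hist1h1c: gcctcccctaacaatccaaAAGGCTCTTtt
Hist1h4m: aactaaaGGCCCTTTTCAGGGCCatccaa

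A complete stem-loop (6 bases starting with GG, a loop of 4 bases starting with TT, and the reverse complement of the first 6) was found in 8 of all probes, and 5 of these were histone probes, for Hist1h2bf, Hist2h2bb, Hist1h3a, Hist1h3i and Hist1h4m. Downstream probes carried other letters. The polyadenylation signals AATAAA and ATTAAA were searched in the same orientation and were found in 4 of the 19 downstream probes, in 1 of 36 body probes and in none of the 13 stem-loop probes, against 13.4% of all probes. Windows of the 4 downstream probes are shown, with the signal in capitals.
Hist1h2be: gtactgttcattATTAAAgcattcctgatt
Hist2h2bb: gttgtcagtttgAATAAAgacagagaaact
Hist2h2be: gatcgAATAAAtccattcactgcatgtgca
Hist3h2ba: gttcataatggtattAATAAAtttggttca
The median GC content was 55.0% for body, 45.0% for stem-loop and 36.7% for downstream probes, so the kinds of probe also differ in base composition.

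Body probes of near-identical genes share most of their sequence. Of the 68 probes, 9 matched at least 50 of 60 bases with a probe of another histone gene, 7 in H2A and 2 in H4, and 19 carried more than 1 RefSeq accession, up to 4. The probes of 4 H2A genes show this, with a run of 39 bases common to all 4 in capitals. Their mm9 positions are chr13:22127035-22127094, chr13:23626113-23626172, chr13:24026659-24026718 and chr3:96024378-96024437, on the minus, plus, plus and minus strand.
Hist1h2ah: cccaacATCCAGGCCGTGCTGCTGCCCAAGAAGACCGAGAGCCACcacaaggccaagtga
Hist1h2af: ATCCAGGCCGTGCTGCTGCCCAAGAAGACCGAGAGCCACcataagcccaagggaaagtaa
Hist1h2aa: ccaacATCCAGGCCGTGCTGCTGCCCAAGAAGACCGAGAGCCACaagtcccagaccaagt
Hist2h2ac: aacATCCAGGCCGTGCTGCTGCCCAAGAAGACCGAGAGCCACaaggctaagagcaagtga
Signal on such probes cannot be given to 1 gene with certainty. This touches Hist1h2aa, a gene known for its use in male germ cells: its probe matched 54 of 60 bases with that of Hist2h2ac.

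Of the 68 histone probes, 62 (52 genes) passed the filter on dim probes, which asked for 3 of the 6 arrays well above background, and were tested, and 57 were so on all 6. The 6 others, for Hist1h1d, Hist1h2ad, Hist1h2ai, Hist1h2al, Hist2h2aa1 and the pseudogene Hist3h2bb-ps, were well above background on no array, and Hist1h1d and Hist1h2ai had another probe that was. Hist1h2al is named as a pseudogene too in RefSeq (H2af-ps2). Values are log2 intensities relative to each array's 75th percentile, and a change is Atg5f/f;Vav minus control, with its SE and the adjusted p of limma over all 32074 probes tested. From 57.6% to 58.1% of all probes were well above background in controls and from 51.6% to 54.8% in Atg5f/f;Vav cells. The groups filled separate rows of 1 slide, and row and genotype cannot be told apart. The signal of Atg5 itself was 1.10, 0.93 and 1.06 in controls and 1.46, 1.51 and 1.74 in Atg5f/f;Vav cells, higher in the group labelled as lacking it (adjusted p = 0.021). Where its probe lies relative to the deleted part was not determined.

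Few histone probes differed between the groups. Past an adjusted p of 0.05, 1 of the 62 was higher in Atg5f/f;Vav LSK cells, in H3, and 6 were lower, 1 in H1 and 5 in H2B, while none in H2A or H4 passed. Over all probes tested 34.4% passed, 17.3% higher and 17.1% lower. At an unadjusted p under 0.05 there were 13 histone probes. The 3 arrays of each group did not overlap for 5 probes that were higher and 10 that were lower, against 27.1% and 28.3% of all probes, or 55.4% in either direction. Without control replicate 1 or without control replicate 2, no histone probe passed the threshold, and the probes that passed among all 32074 fell from 11024 to 330 and 251. The 7 histone probes then kept their direction, with adjusted p from 0.057 to 0.105. The median change over 52 genes, each by its brightest tested probe, was 0.08, against -0.03 over all 20778 genes. Its sign was not stable: it was -0.16 after quantile normalisation, -0.12 when the 75th percentile was taken over probes well above background on all 6 arrays, which moved the median of all probes from -0.06 to -0.27, and -0.05 without Atg5f/f;Vav replicate 3. In bulk samples, the number of cells that hold a transcript and its amount per cell cannot be told apart.

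**Figure D1:**
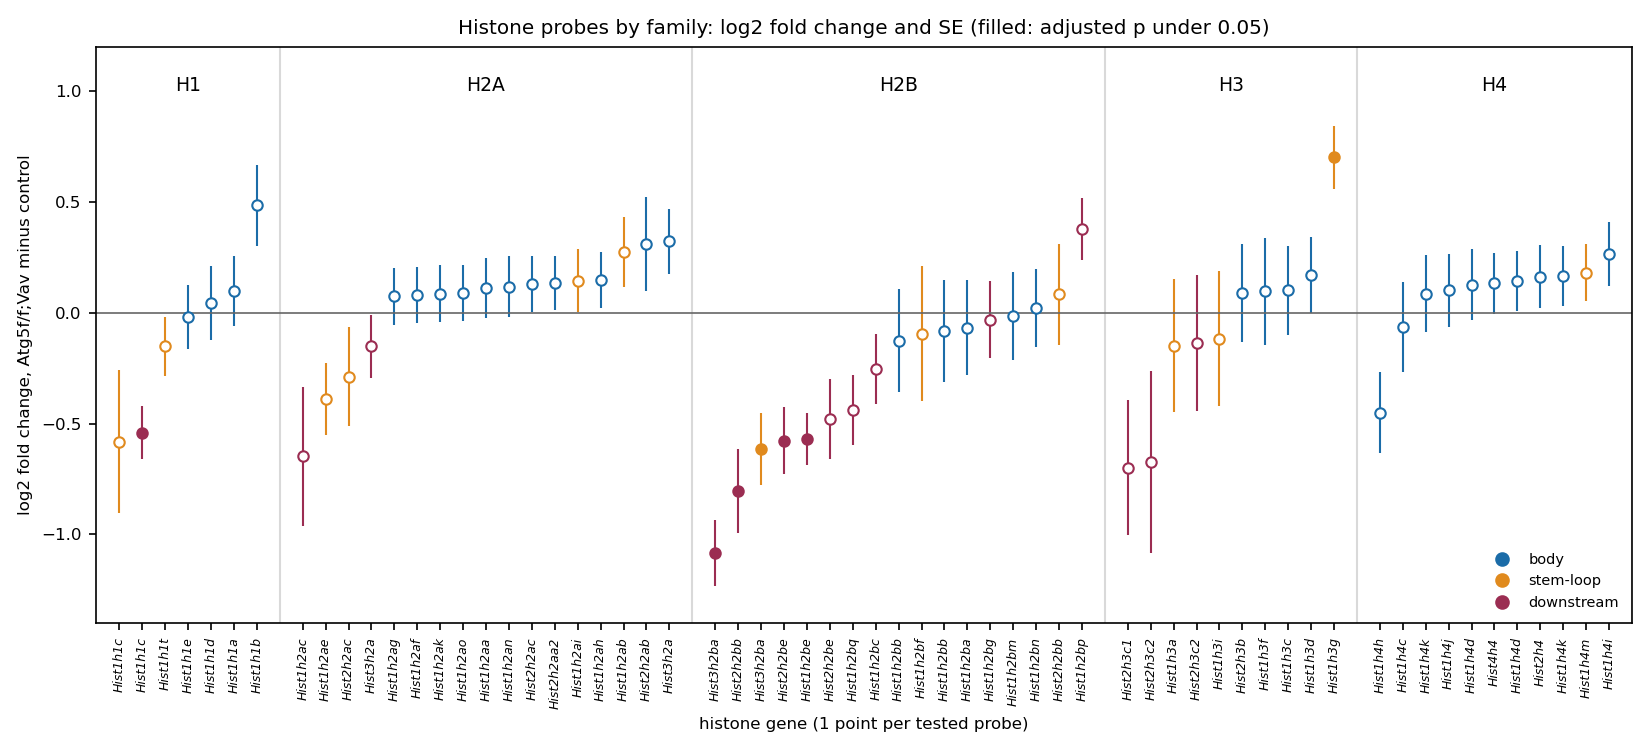
Each point is 1 of the 62 tested histone probes, grouped by family and ordered by its log2 fold change (vertical axis, Atg5f/f;Vav minus control), with the SE of the limma fit as a bar; colours give body, stem-loop and downstream probes, and filled points passed an adjusted p of 0.05. Body probes lie between -0.45 and 0.48 and none is filled, while 5 of the 7 filled points are downstream probes and all 5 lie below 0.

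The probes that passed were next sorted by where they lie along the transcripts. None of 34 tested body probes passed, and their median change was 0.10. Of 13 stem-loop probes, Hist1h3g was higher and Hist3h2ba lower, and the median was -0.12. The stem-loop probes of Hist1h2ae (-0.39) and Hist2h2ac (-0.29) held the arm only near their start and ran on past it. Of 15 tested downstream probes, 5 were lower, none was higher and 14 had a negative value. Among all 32074 probes tested, 17.1% were lower, 17.3% were higher and 17554 had a negative value. The median of the downstream probes was -0.54, against -0.06 for all probes. As the split was made with the values known, no test of the classes was run. The classes also differed in brightness: 11 of the 15 downstream probes were well above background on all 6 arrays, against 34 of 34 body probes. The highest mean control signal was 2.87 among downstream probes and 9.19 among body probes. The part of brightness in these medians was not tested. When the 75th percentile was taken over probes well above background on all arrays, the downstream median was -0.75 and 7 of 15 were lower; only 6 of the 47 body and stem-loop probes then lay above 0, compared with 32 in the values used here and 21 after quantile normalisation. Without control replicate 1 or without control replicate 2 none of the 15 passed, and without Atg5f/f;Vav replicate 2 only 3 did. The downstream median was -0.35 without Atg5f/f;Vav replicate 3, -0.35 with normexp background correction and -0.40 after quantile normalisation.

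**Figure D2:**
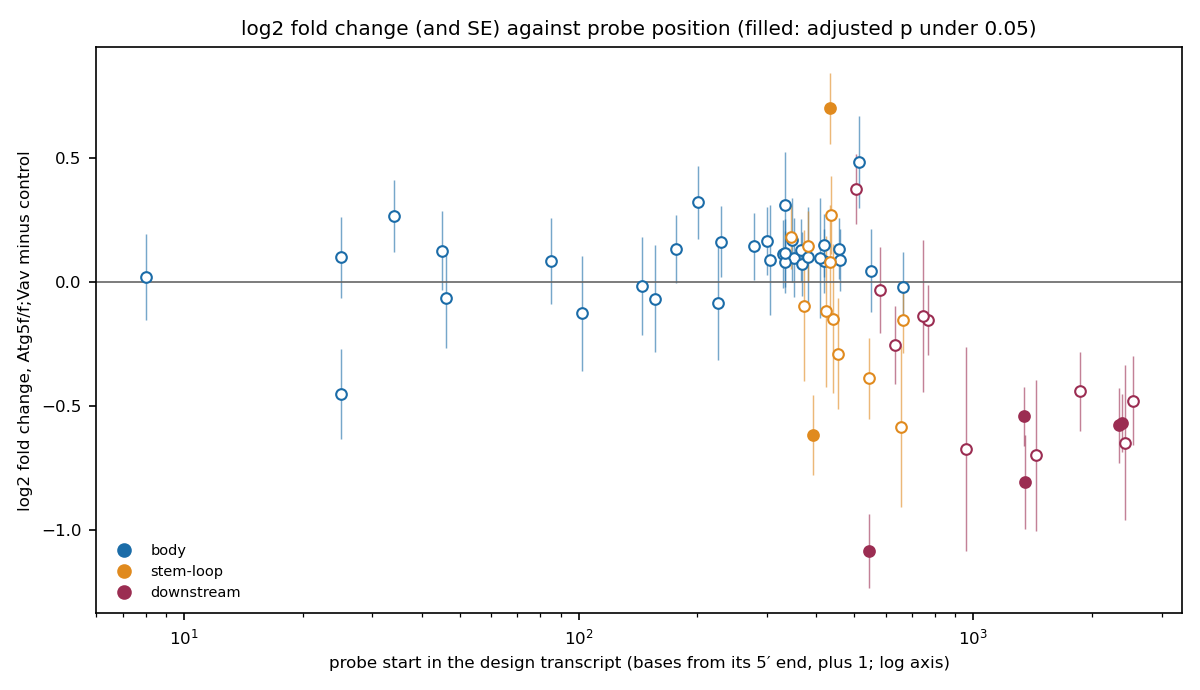
The log2 fold change of each tested histone probe (vertical axis, with SE) is plotted against the base of the design transcript at which the probe starts (horizontal axis, log scale, 1 added), with filled points past an adjusted p of 0.05. Of the 15 downstream probes 14 lie below 0, with a median of -0.54, while 27 of 34 body probes lie above 0.

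Of the 7 tested H1 probes, 1 passed. Hist1h1e, which encodes H1.4 and had the highest mean signal of the H1 probes, was 6.17, 6.21 and 6.25 in controls and 6.00, 6.10 and 6.46 in Atg5f/f;Vav cells. The groups overlapped, and the change was -0.02 (SE 0.145, adjusted p = 0.920), with a 95% interval from -0.36 to 0.32. Hist1h1c, which encodes H1.2 and is known to give a polyadenylated mRNA as well, had 2 probes. Its downstream probe, at chr13:23832018-23832077 of mm9, was 1.36, 1.04 and 1.11 in controls and 0.63, 0.61 and 0.65 in Atg5f/f;Vav cells. Every Atg5f/f;Vav array was below every control array, and the change was -0.54 (SE 0.120, adjusted p = 0.020, or 0.051 without Atg5f/f;Vav replicate 2). Its stem-loop probe was 3.47, 4.08 and 2.94 in controls and 2.57, 2.80 and 3.37 in Atg5f/f;Vav cells, where the groups overlapped, with a change of -0.58 (SE 0.323, adjusted p = 0.192). The 2 probes of Hist1h1c thus had like estimates and unlike spreads.

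The other H1 genes did not pass. Hist1h1b, which encodes H1.5 and was singled out after the values were seen, was 5.07, 4.73 and 5.04 in controls and 5.12, 5.45 and 5.73 in Atg5f/f;Vav cells. Its Atg5f/f;Vav arrays were all above the controls, with a change of 0.48 (SE 0.184, adjusted p = 0.079), and it passed with normexp background correction, with an intensity trend and without Atg5f/f;Vav replicate 1. Hist1h1t, the testis H1, gave a change of -0.15 (adjusted p = 0.399).

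In H2A all 11 tested body probes had a positive value, from 0.07 to 0.32, and none passed. Hist1h2ah, a core H2A gene and the brightest of the family, was 9.21, 9.18 and 9.18 in controls and 9.14, 9.37 and 9.51 in Atg5f/f;Vav cells. Replicate 1 of Atg5f/f;Vav lay below all controls and the other two above, and the change was 0.15 (SE 0.126, adjusted p = 0.380; 95% interval from -0.15 to 0.45). Hist1h2aa gave 0.11 (adjusted p = 0.531). The 2 tested downstream probes of the family, for Hist1h2ac and Hist3h2a, were at -0.65 and -0.15.

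H2B held 5 of the 6 probes that were lower, and all 5 were downstream or stem-loop probes. Hist3h2ba, an H2B gene of the Hist3 cluster (H2bu2 in RefSeq), gave the largest fall. Its downstream probe, at chr11:58762964-58763023 of mm9, was 0.44, 0.22 and 0.38 in controls and -0.62, -0.57 and -1.004 in Atg5f/f;Vav cells. The groups were well apart, and the change was -1.08 (SE 0.149, adjusted p = 0.013), or 0.472 times the control signal. Its stem-loop probe, at chr11:58762804-58762863, was -0.14, -0.04 and -0.42 in controls and -1.06, -0.64 and -0.75 in Atg5f/f;Vav cells. Again no array overlapped, with a change of -0.62 (SE 0.161, adjusted p = 0.029, or 0.056 without Atg5f/f;Vav replicate 1). Hist3h2ba was the only histone gene with 2 probes past the threshold.

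Hist1h2be (H2bc6 in RefSeq), an H2B gene of the Hist1 cluster, was measured by a downstream probe at chr13:23675610-23675669. It was -1.91, -1.91 and -2.13 in controls and -2.62, -2.46 and -2.58 in Atg5f/f;Vav cells. The groups did not overlap, and the change was -0.57 (SE 0.118, adjusted p = 0.018). Hist2h2bb, an H2B gene of the Hist2 cluster that falls outside the rule for naming genes and was added after its values were seen, had a stem-loop and a downstream probe that differed. The downstream probe, at chr3:96082754-96082813, was -2.76, -2.72 and -2.84 in controls and -3.38, -3.36 and -4.0 in Atg5f/f;Vav cells, a change of -0.81 (SE 0.188, adjusted p = 0.022). It did not pass after quantile normalisation (-0.51, adjusted p = 0.063) or without a filter on dim probes (adjusted p = 0.056). The stem-loop probe was 3.42, 3.89 and 3.29 in controls and 3.26, 3.63 and 3.97 in Atg5f/f;Vav cells, with overlap and a change of 0.08 (SE 0.229, adjusted p = 0.792). On the genome these 2 probes start at chr3:96074056 and chr3:96082754, further apart than in their design transcripts (bases 433 and 1348). The downstream probe of Hist2h2bb thus need not report a transcript that simply runs on past the stem-loop. The same caution holds for the downstream probes of Hist1h2be, Hist1h2bp, Hist1h2bc and Hist1h2bq. Their RefSeq lengths are 37455, 14079, 8282 and 3788 bases, and where these probes lie from the stem-loop on the genome was not determined. Hist2h2be, known to give a polyadenylated mRNA that rises in cells leaving the cycle, was measured by 2 downstream probes, at -0.58 (adjusted p = 0.030) and -0.48 (adjusted p = 0.076). All 3 Atg5f/f;Vav arrays lay below the controls on both. The first did not pass without control replicate 3 (adjusted p = 0.071) or without Atg5f/f;Vav replicate 2 (adjusted p = 0.057), and the second passed with normexp background correction. Hist1h2bc, of the same kind, was 2.79, 2.87 and 2.95 in controls and 2.80, 2.74 and 2.30 in Atg5f/f;Vav cells, a change of -0.25 (adjusted p = 0.239).

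None of the remaining H2B probes passed. Hist1h2bm, the brightest H2B gene, was 4.97, 5.25 and 4.76 in controls and 4.67, 4.96 and 5.30 in Atg5f/f;Vav cells, with overlap and a change of -0.02 (SE 0.199, adjusted p = 0.957; 95% interval from -0.49 to 0.46). Hist1h2ba, the testis H2B, gave -0.07 (adjusted p = 0.824). Of 9 tested downstream H2B probes, 8 had a negative value. The exception, Hist1h2bp, was singled out for that reason, and its change was 0.38 (adjusted p = 0.075; 95% interval from 0.04 to 0.71), with no overlap between the groups. It passed after quantile normalisation. Its signal was low, at -4.81, -4.54 and -4.40 in controls and -4.21, -4.30 and -4.09 in Atg5f/f;Vav cells. Of the control arrays, only 2 were well above background for this probe. Hist1h2bq, named after its values were seen, was -1.76, -1.32 and -1.36 in controls and -1.78, -1.91 and -2.08 in Atg5f/f;Vav cells on a downstream probe. The groups did not overlap, and the change was -0.44 (adjusted p = 0.069; 95% interval from -0.82 to -0.06). It passed when the 75th percentile was taken over probes well above background on all arrays.

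**Figure D3:**
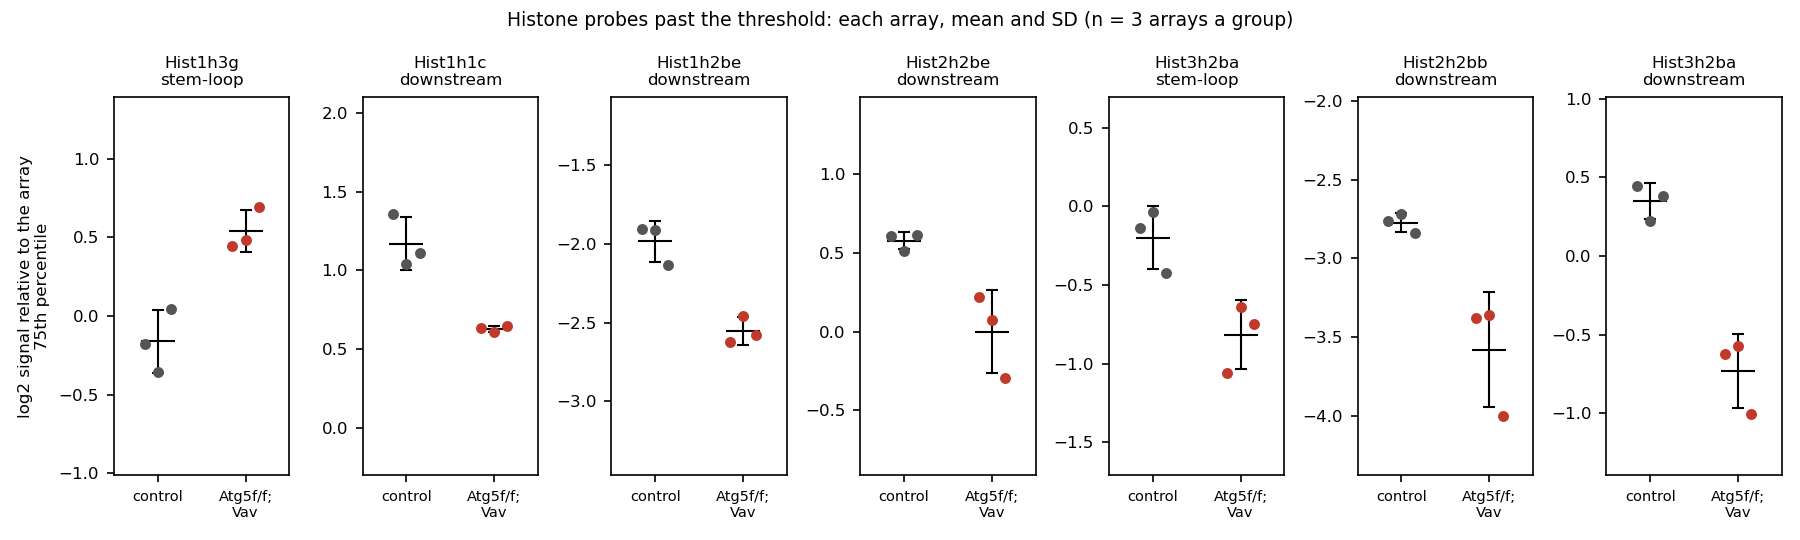
Log2 signal relative to the array's 75th percentile (vertical axis, each panel on its own range of equal height) of the 7 histone probes past the threshold, with 1 point per array, the mean as a line and the SD as a bar (n = 3 arrays a group). In all 7 panels the 3 Atg5f/f;Vav arrays lie on 1 side of the 3 controls, above in Hist1h3g and below in the other 6.

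In H3 the only histone probe that was higher was found. Hist1h3g (H3c8 in RefSeq), which encodes a core H3, was measured by a stem-loop probe at chr13:23627719-23627778 of mm9. It was -0.18, -0.36 and 0.05 in controls and 0.45, 0.48 and 0.69 in Atg5f/f;Vav cells. Every Atg5f/f;Vav array was above every control, and the change was 0.70 (SE 0.143, adjusted p = 0.018), or 1.63 times the control signal. The stem-loop probes of 2 other H3 genes, Hist1h3a and Hist1h3i, gave -0.15 and -0.12. Hist1h3d, the brightest H3 gene, was 6.53, 6.69 and 6.38 in controls and 6.43, 6.67 and 7.003 in Atg5f/f;Vav cells, with overlap and a change of 0.17 (SE 0.171, adjusted p = 0.456; 95% interval from -0.24 to 0.58). All 3 downstream H3 probes had a negative value, from -0.70 to -0.14, and none passed. None of these 3 was well above background on all 6 arrays.

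In H4, 10 body probes and 1 stem-loop probe were tested and none passed. Hist1h4d, the brightest of the family by its probe at chr13:23673749-23673808, was 8.62, 8.40 and 8.51 in controls and 8.46, 8.70 and 8.81 in Atg5f/f;Vav cells. The groups overlapped, and the change was 0.14 (SE 0.134, adjusted p = 0.422; 95% interval from -0.17 to 0.46). Of the 11 H4 probes, 9 had a positive value. The lowest, Hist1h4h, gave -0.45 (adjusted p = 0.093), and it passed when the 75th percentile was taken over probes well above background on all arrays. No H4 gene had a downstream probe.

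Within 4 genes, a downstream probe could be set against a probe of the same gene on the same array. The within-array difference between the 2 probes changed by -0.89 for Hist2h2bb, -0.47 for Hist3h2a, -0.47 for Hist3h2ba and 0.04 for Hist1h1c (Atg5f/f;Vav minus control). These differences are a description, with no test. The 2 probes of Hist2h2bb lie far apart on the genome and need not report 1 transcript.

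The Atg5f/f;Vav arrays kept 1 order across the histone body probes. In all 34, replicate 3 was the highest and replicate 1 the lowest of its group, an order seen in 27.7% of all probes tested. The same order was found in 10 of 13 stem-loop probes and 11 of 30 S phase genes, and replicate 3 was the highest of its group in 24 of these 30. The median difference from the control mean was -0.12, 0.14 and 0.32 in Atg5f/f;Vav replicates 1, 2 and 3, which puts the first below and the others above the controls. In the downstream probes the order was another: replicate 3 was the lowest in 11 of 15, with medians of -0.26, -0.33 and -0.60. The median SD over the body probes was 0.144 between control arrays and 0.248 between Atg5f/f;Vav arrays, against 0.137 and 0.199 over all probes. As many body probes share bases, they are not independent readings of that order. Atg5f/f;Vav replicate 3 also had the smallest share of probes well above background of the 6 arrays. Without it the median over histone genes was -0.05, the downstream median was -0.35 and 23 of the 47 body and stem-loop probes lay above 0.

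**Figure D4:**
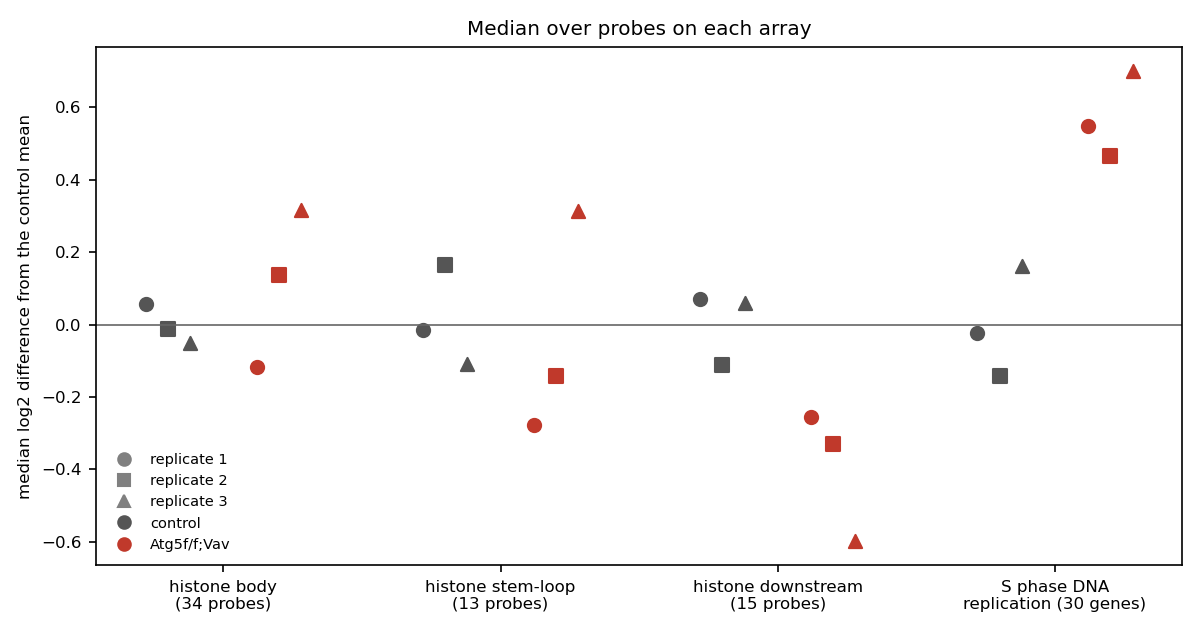
For each array, the median over probes of the log2 difference from the control mean (vertical axis) is shown for histone body, stem-loop and downstream probes and for 30 genes of S phase DNA replication; shapes give the replicate and colours the group. Body probes run from -0.12 to 0.32 across the Atg5f/f;Vav arrays on both sides of 0, downstream probes are at -0.26 to -0.60 and S phase genes at 0.47 to 0.70.

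Genes of DNA replication, which are active in the same phase of the cycle, gave other values. Of 30 S phase genes (DNA helicase, polymerase and nucleotide synthesis genes), 27 were higher and none lower, with a median of 0.57, against 18.7% of all genes higher. Mcm10, a replication initiation factor, was at 1.07 and Cdc45, a part of the replicative helicase, at 0.96. Of 16 genes of G2 and mitosis 14 were higher, with a median of 0.84, led by the mitotic kinases Plk1 (1.17) and Aurkb (1.09). The 95% interval of the change lay below 0.57 for 26 of 34 body and 8 of 13 stem-loop probes, while 5 of these 47 histone probes had an interval that did not include 0. The half-width of these intervals, which are not adjusted for the number of probes, had a median of 0.38 in these 47. An estimate smaller than the half-width of its own probe was not told apart from 0. The S phase count was 12 after quantile normalisation, 16 with the 75th percentile over probes well above background on all arrays, 9 without a filter on dim probes and 0 without control replicate 1 or without control replicate 2; its median stayed positive in all of these, from 0.29 to 0.57. The G2 and mitosis count was also 0 without either of these controls and 7 without a filter on dim probes.

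Of 20 genes for histone chaperones, the proteins that carry histones to DNA, 11 were higher and none lower, with a median of 0.41. Of all genes, 18.7% were higher and 15.3% lower. Asf1b, a chaperone of H3 and H4, was 2.13, 1.71 and 2.26 in controls and 2.82, 2.82 and 3.33 in Atg5f/f;Vav cells, without overlap, a change of 0.96 (SE 0.204, adjusted p = 0.019). Anp32e, which handles the variant H2A.Z, was at 0.93. Replacement histones are made outside S phase as well and mostly, though not in every case, from ordinary polyadenylated mRNAs alone. Of 12 such genes 3 were higher, not far from the share of all genes. They were the centromeric H3 gene Cenpa (0.90), the H2A.Z gene H2afz (0.75) and H2afx. H2afz was 6.46, 6.35 and 6.72 in controls and 7.17, 7.19 and 7.40 in Atg5f/f;Vav cells, with no overlap. The chaperone count was 6 with the 75th percentile over probes well above background on all arrays, where 2 were lower, and both counts were 0 without control replicate 1 or without control replicate 2.

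Genes that act on histone genes and their mRNAs were measured as well, and 18.7% of all genes were higher. Slbp, the stem-loop binding protein, was 1.82, 1.90 and 1.89 in controls and 1.71, 1.85 and 1.80 in Atg5f/f;Vav cells, a change of -0.08 (SE 0.102, adjusted p = 0.554). Npat, the coactivator that switches on histone genes at the start of S phase, and Casp8ap2, its partner in the histone locus body, were each at 0.17 (adjusted p = 0.356 and 0.224). Of 12 genes of histone gene transcription, Ccne1, whose cyclin drives phosphorylation of Npat, was higher at 1.32 and E2f1 at 0.46. Of 11 tested genes of histone mRNA processing and decay 4 were higher, with Cpsf2, a subunit of the cleavage complex, at 0.58 and Upf1, a helicase of histone mRNA decay, at 0.53. E2f1 and Cpsf2 did not pass after quantile normalisation, and none of these 6 genes passed without control replicate 1 or without control replicate 2. No processing and decay gene was lower in the values used here. With normexp background correction or an intensity trend 4 were higher and 2 lower, and after quantile normalisation 2 and 2. With the 75th percentile over probes well above background on all arrays 2 were higher and 3 lower.

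**Figure D5:**
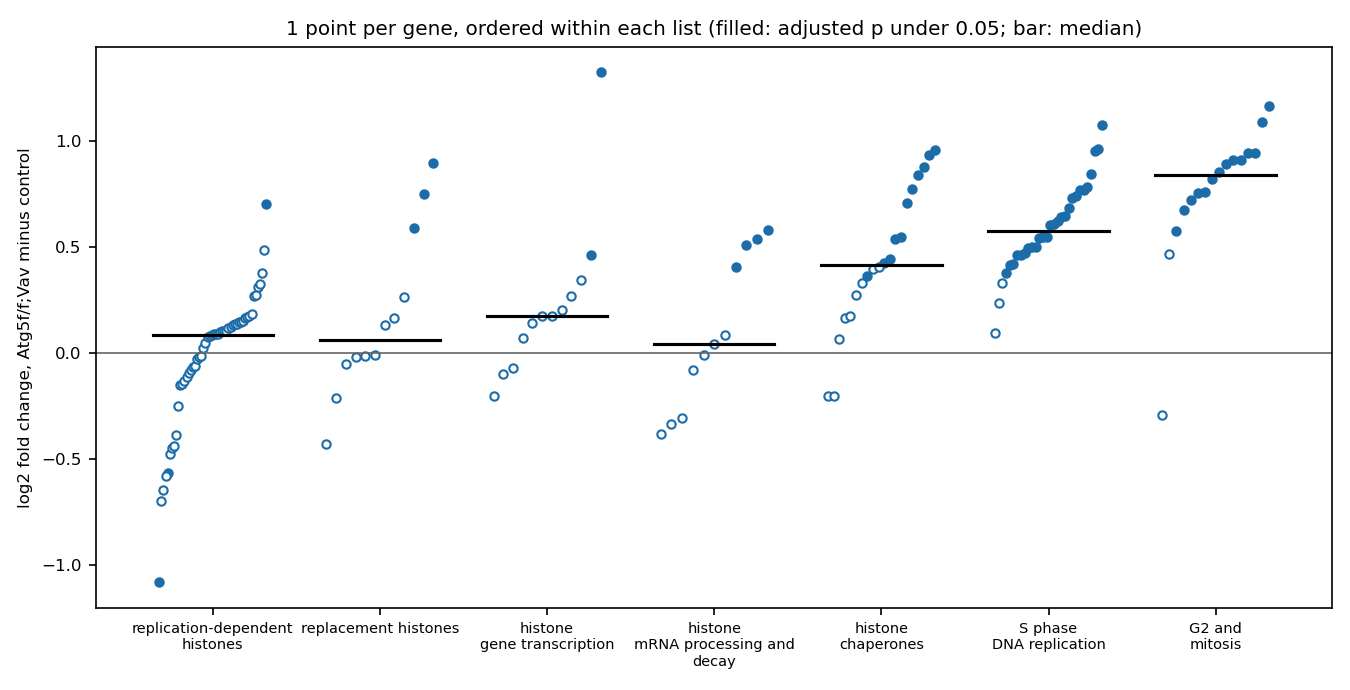
Log2 fold change (vertical axis, Atg5f/f;Vav minus control) of every tested gene in 7 groups, by its brightest probe and ordered within the group, with the median as a bar and filled points past an adjusted p of 0.05. The 52 histone genes have a median of 0.08 with 3 filled points, the 30 S phase genes a median of 0.57 with 27.

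Markers of other cells moved as well, and their part in the histone values was not tested. Over all genes 18.7% were higher and 15.3% lower. Of 12 stem cell markers 1 was higher and 4 lower, with summed linear signals of 155 to 161 in controls and 93.5 to 153 in Atg5f/f;Vav cells. The marker of the sort Ly6a (Sca1) was higher and Kit was at -0.38 (adjusted p = 0.056), and both were well above background on every array. Of 12 erythroid markers 5 were higher and 4 lower (240 to 530 in controls, 103 to 173 in Atg5f/f;Vav cells), and of 12 neutrophil markers 4 were higher and 6 lower (329 to 430 and 371 to 409). The erythroid sums mostly follow Hba-a1 (-2.26), the brightest of that list on every array. Hbb-b1, Alas2 and Slc4a1 were lower too, while Epor, Tfrc, Klf1, Gata1 and Car1 were higher, from 2.08 to 3.80. Of 9 tested stromal markers 3 were lower, with sums of 10.8 to 41.5 in controls and 7.32 to 10.1 in Atg5f/f;Vav cells, and this rested on control replicates 2 and 3, without either of which none passed. Of the tested genes of other lists, 3 of 8 macrophage markers were higher, B cell markers gave 1 higher and 1 lower of 11, megakaryocyte markers 3 and 3 of 10, mast cell and eosinophil markers 1 higher of 10, and T and NK cell markers none of 8. Without control replicate 1 or without control replicate 2, no erythroid or neutrophil marker passed and the stem cell list kept 1 call, that of Ly6a.

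The promoters of histone genes shared motifs that the choice of members did not use. RefSeq promoters (GRCm38.p6, 250 bases before to 50 after the start) were matched for 49 of the 56 genes and searched on both strands, beside all 32851 promoters. CCAAT was found in 87.8% of the histone promoters and in 37.4% of all, TATAAA or TATATA in 69.4% and 17.1%, and the octamer ATGCAAAT in 24.5% and 1.74%. CCAAT was in every H1, H2A, H2B and H3 promoter but in 2 of 8 in H4, and the octamer was in 7 of 17 H2A and 5 of 11 H2B promoters and in no other. Several H2A and H2B windows overlap, such as those of Hist1h2ae (chr13:23571171-23571470) and Hist1h2bg (chr13:23571150-23571449). The same motif can therefore count in both families, and the 49 promoters are not all separate. Such matches are a description and do not show binding. The 160 bases before the start are shown for the gene that was higher, the gene with the largest fall, and its neighbour in the Hist3 cluster, whose body probe was at 0.32 (adjusted p = 0.125), with the motifs of either strand in capitals. They lie at chr13:23535258-23535417, chr11:58948751-58948910 and chr11:58954525-58954684 of GRCm38.p6, each on the plus strand.
Hist1h3g: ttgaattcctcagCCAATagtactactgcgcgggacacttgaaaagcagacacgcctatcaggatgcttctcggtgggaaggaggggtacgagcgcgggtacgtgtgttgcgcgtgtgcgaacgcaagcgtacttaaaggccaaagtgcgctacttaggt
Hist3h2ba: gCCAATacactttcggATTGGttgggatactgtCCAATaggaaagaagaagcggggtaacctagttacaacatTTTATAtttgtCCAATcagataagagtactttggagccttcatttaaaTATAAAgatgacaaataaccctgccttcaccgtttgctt
Hist3h2a: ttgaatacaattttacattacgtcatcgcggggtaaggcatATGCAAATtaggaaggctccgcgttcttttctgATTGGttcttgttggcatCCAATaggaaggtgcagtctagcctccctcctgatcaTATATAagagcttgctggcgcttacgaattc
In these windows Hist1h3g held 1 CCAAT and no TATA motif, Hist3h2ba 4 CCAAT and 2 TATA motifs, and Hist3h2a 2 CCAAT, 1 TATA motif and 1 octamer.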

How the data were processed

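The members and gene lists were chosen with earlier results of these data known. The authors deposited scanner files with 1 background-corrected intensity per spot, and a table of normalised signal that they had scaled. The files came from Agilent Feature Extraction 12.0.3.1, per the submitters' processing notes, with probes placed on mm9. Within each array, the scaled signal was checked to be the background-corrected intensity divided by 1 constant factor. From the log2 intensity, the 75th percentile of the 59305 non-control spots was subtracted. Between 64 and 81 spots an array were flagged as outliers and dropped, and spots of a probe were averaged. Probes that reached 3 arrays well above background entered limma 3.58.1 under R 4.3.3 (2-sided, Benjamini-Hochberg over 32074 probes, threshold 0.05). Groups follow the sample labels. The number of arrays limits the precision. A gene is represented by its brightest tested probe. Gene names are those of the array; RefSeq matched 48 genes by accession and 8 by synonym. Named genes were, for each family, the brightest, up to 2 largest rises and 2 largest falls that passed and any gene with probes called in opposite directions, the known polyadenylated and germ cell members, up to 2 largest rises and falls of each related list, and Slbp, Npat, Casp8ap2 and Asf1b. Alternatives were other background corrections, scalings and filters, the deposited table, outlier-flagged spots kept, an intensity trend, the methods' t-test, a replicate block, each array left out, and the mean of a gene's probes. The steps were tested on simulated data. With 1 slide and 1 scan, neither could serve as a block.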

Additional observations from a re-analysis of the deposited data

How the results depend on the processing

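Histone probes past the threshold numbered 1 higher and 6 lower. The higher count was 2 with normexp background correction, 2 after quantile normalisation and 2 with an intensity trend. The lower count was 10 with the 75th percentile over probes well above background on all 6 arrays and 2 without a filter on dim probes, for Hist1h2be and the downstream probe of Hist3h2ba. With the methods' t-test both counts and the downstream count were 0, also over all probes, with 8 histone probes and 13541 of all at an unadjusted p under 0.05. The downstream count, 5, was 2 without a filter on dim probes. Leaving out each array in turn gave 0 to 2 higher, 0 to 6 lower and 0 to 6 downstream probes lower. The split of higher to lower histone calls was 2 to 5 after quantile normalisation, and that of all probes went from 5540 and 5484 to 3371 and 10088 with the 75th percentile over probes well above background on all arrays. The downstream median, -0.54, was -0.75 under that scaling, -0.35 with normexp background correction and -0.40 after quantile normalisation. The alternatives for the downstream probes were added after the data were seen. Without a filter on dim probes, 4538 of 56605 probes passed, and 16521 had an unadjusted p under 0.05. With the filter 15506 of 32074 had such a p. Both the number of tests and the fit differ between these settings, and the cause was not tested. S phase and chaperone counts without the filter were 9 and 6, and G2 and mitosis 7.

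Deviations of same-numbered arrays correlated at -0.07, 0.19 and 0.11, against -0.30 to 0.13 for arrays with unlike numbers. With so few arrays this cannot settle whether replicate numbers pair them. With the replicate block 1 histone probe was higher and 7 were lower, 6 of them downstream. Of 528 refits of single named or called probes, 450 kept their side of the threshold, 76 lost it, 2 gained it and none that passed changed sign, while 16 that never passed did.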
